A study of Mus musculus and Rattus norvegicus with 36 samples.

Results

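The 36 genes described here are those that cells use to respond to a shortage of amino acids or to misfolded protein in the endoplasmic reticulum (ER). They were taken as a list of symbols, and of the 36 listed, 35 were measured in each tissue (liver and kidney of the mouse, liver of the rat), out of 18193 mouse genes and 14217 rat genes with a probe set that carries 1 symbol. Pycr1, an enzyme of proline synthesis, had no such probe set and was not analysed here. Where several probe sets carry a symbol, the brightest one on average across that tissue's arrays stands for the gene, and every level is a log2 expression value on Affymetrix arrays.

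The study asked how dietary Se, from deficiency to toxic intake, changes liver and kidney mRNA. Rat liver at 5, at 2, and in Se deficiency was set against 0.24 μg Se/g diet (rat study 2), and rat liver at 0.8 was set against 0.08 μg Se/g diet (rat study 1), in male weanling Holtzman rats fed for 28 days. Liver and kidney of male mice, mostly of C57 black stock, that were Se-deficient or fed 0.05 μg Se/g were set against mice fed 0.2 μg Se/g for 35 days. The diets of all groups shared a torula yeast base, with methionine and vitamin E added, and Se was given as selenite. Groups are called here by species and diet, as 5 μg rats or 0.2 μg mice. Each of the 12 groups has 3 arrays, 1 for each animal, and livers were perfused before RNA was extracted. A mouse may have given both a liver and a kidney array. The paper reports that rats on the highest Se diet grew less and had more plasma alanine aminotransferase, a marker of liver damage. It considers that many transcripts changed by that diet could respond to general toxicity or caloric restriction, and removed overlapping ones from its list. No such removal was made here. The part of slower growth, food intake or liver damage in the differences given here was not tested.

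When an amino acid runs short or unfolded protein collects in the ER, kinases phosphorylate the translation factor eIF2, most translation slows, and the mRNA of the transcription factor Atf4 is translated more. Atf4 then raises genes of amino acid synthesis and transport, other transcription factors, and genes that restore translation. The unfolded protein response has further arms, through Xbp1 and Atf6, that raise ER chaperones and the genes that send misfolded proteins to degradation. The Atf4 step is set by translation and Xbp1 by splicing of its mRNA, and neither was measured here.

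Transcription factors of these responses bind short motifs in promoters. The promoters of 5 members that hold such motifs are shown from the mouse (RefSeq, GRCm38.p6). Each runs from 250 bases before to 50 bases after the start of the gene, on the strand of the gene. Most members called higher in rats fed 5 μg Se/g hold none of the motifs (Phgdh, Aldh18a1, Mthfd2 and Ppp1r15a) and are not shown. Asns and Vldlr were called higher in liver of rats fed 5 μg Se/g, Herpud1 was called higher in 5 μg rats than in 2 μg rats, and the chaperone genes Hspa5 and Hsp90b1 were called in no comparison. Capitals mark matches, on either strand, to the C/EBP-ATF response element (CARE, TGATGNAA), to the ER stress response element (ERSE, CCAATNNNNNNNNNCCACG), or to its variant ERSE-II (ATTGGNCCACG), in which the bases CCACG and, on the opposite strand, CCAAT are shared with ERSE. The windows are chr6:7693160-7693459 (minus strand) for Asns, chr19:27216770-27217069 (plus strand) for Vldlr, chr8:94386179-94386478 (plus strand) for Herpud1, chr2:34771840-34772139 (plus strand) for Hspa5 and chr10:86705395-86705694 (minus strand) for Hsp90b1.
Asns: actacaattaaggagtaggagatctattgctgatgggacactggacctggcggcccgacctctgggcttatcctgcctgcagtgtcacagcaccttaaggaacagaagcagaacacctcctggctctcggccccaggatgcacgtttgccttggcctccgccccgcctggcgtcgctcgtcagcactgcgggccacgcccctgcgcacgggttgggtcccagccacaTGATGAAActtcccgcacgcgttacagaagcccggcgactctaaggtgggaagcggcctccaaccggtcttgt
Vldlr: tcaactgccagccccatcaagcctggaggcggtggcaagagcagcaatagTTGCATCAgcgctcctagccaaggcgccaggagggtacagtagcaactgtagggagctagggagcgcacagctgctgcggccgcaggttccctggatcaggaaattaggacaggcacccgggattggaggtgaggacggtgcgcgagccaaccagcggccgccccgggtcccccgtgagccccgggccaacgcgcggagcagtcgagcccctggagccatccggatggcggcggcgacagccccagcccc
Herpud1: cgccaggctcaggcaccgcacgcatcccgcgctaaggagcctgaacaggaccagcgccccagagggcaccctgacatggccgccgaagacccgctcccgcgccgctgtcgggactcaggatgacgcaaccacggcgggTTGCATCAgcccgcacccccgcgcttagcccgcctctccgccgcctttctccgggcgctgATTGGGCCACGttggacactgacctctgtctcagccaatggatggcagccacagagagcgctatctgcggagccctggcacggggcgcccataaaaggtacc
Hspa5: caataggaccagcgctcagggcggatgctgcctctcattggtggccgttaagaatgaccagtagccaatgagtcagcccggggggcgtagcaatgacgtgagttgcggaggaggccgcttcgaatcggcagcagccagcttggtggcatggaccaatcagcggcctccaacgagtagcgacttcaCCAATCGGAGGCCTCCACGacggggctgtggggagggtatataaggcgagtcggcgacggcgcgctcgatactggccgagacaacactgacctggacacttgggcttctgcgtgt
Hsp90b1: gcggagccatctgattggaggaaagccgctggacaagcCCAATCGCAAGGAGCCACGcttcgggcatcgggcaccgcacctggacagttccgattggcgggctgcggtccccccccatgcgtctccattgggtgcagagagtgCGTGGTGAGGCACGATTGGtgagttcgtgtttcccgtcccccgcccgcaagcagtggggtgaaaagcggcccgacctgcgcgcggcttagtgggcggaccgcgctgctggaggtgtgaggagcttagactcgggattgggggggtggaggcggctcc

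Counted from the start of the gene, the first base of the CARE match is at −23 in Asns, at −200 in Vldlr and at −112 in Herpud1. Herpud1 also holds an ERSE-II match at −52. Hspa5 holds 1 ERSE match and Hsp90b1 holds 2, 1 on each strand. Over all 32851 mouse promoter windows of this length, 3.97% hold CARE, 0.119% hold ERSE and 0.0365% hold ERSE-II. A window was found for 34 members, Pycr1 included, but not for Slc7a5 and Eif4ebp1. CARE lies in the windows of 9 members (Asns, Atf3, Chac1, Trib3, Fgf21, Nupr1, Herpud1, Vldlr and Pycr1) and ERSE in those of 5 (Hspa5, Hsp90b1, Calr, Pdia6 and Creld2), with no member in both groups. A match is a description of these letters in the mouse, and the rat windows were not used here.

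Gpx1, the selenoprotein whose mRNA follows Se supply, was used to check the diets. It was lower in Se deficiency in mouse liver (12.98 ± 0.10, against 14.13 ± 0.02 in 0.2 μg mice, SD, n = 3 each), in mouse kidney (12.55 ± 0.20, against 13.81 ± 0.05 in 0.2 μg mice) and in rat liver (12.26 ± 0.09, against 14.12 ± 0.07 in 0.24 μg rats), each with an adjusted p of at most 0.0039 in limma. Array medians lay between 6.17 and 6.29, and between arrays of a group r over probe sets was 0.992 to 0.997 in mouse tissues and 0.972 to 0.995 in rat liver. The array of replicate 1 of the 2 μg rats stood apart, with 1964 probe sets more than 2-fold from the mean in 0.24 μg rats, against 136 and 147 for the other two arrays of its diet. Hepatocyte markers were high in liver (the dimmest of 5 in the rat, Apoa1, averaged 13.58, and the dimmest of 4 in the mouse, Cps1, averaged 13.57), and the summed level of 4 proximal tubule markers was 15.45 to 15.58 in kidney, against 8.54 to 8.74 in liver, in 0.2 μg mice.

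At 5 μg Se/g diet, 4 of 7 genes of amino acid and one-carbon synthesis rose in rat liver, and 0 of 8 ER chaperones passed the test. The difference between these groups of genes was not tested. Of the 35 members measured, 6 were called higher and 0 lower than in 0.24 μg rats (limma, adjusted p under 0.05 over all 31042 probe sets). These calls are from the fit of the 12 arrays of rat study 2, and one fit of all 18 rat arrays called more members. Asns rose 4.82-fold, Phgdh 3.77-fold, Aldh18a1 2.24-fold, Ppp1r15a 1.86-fold, Mthfd2 1.77-fold and Vldlr 1.39-fold. Of all probe sets, 2.82% were called, 2.21% higher and 0.609% lower, and with 1 probe set for each gene 4.07% were called and 3.26% were higher. The median log2 difference was 0.35 over the members, of which 28 were positive, and −0.005 over all 14217 genes, of which 6966 were positive. At an unadjusted p under 0.05, 15 members were higher and 1 was lower, where 14.7% of all probe sets passed. All 5 μg rats lay above all 0.24 μg rats in 14 members, where 11.1% of all probe sets did so, and below them in 2 members, where 12.5% did.

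**Figure D1:**
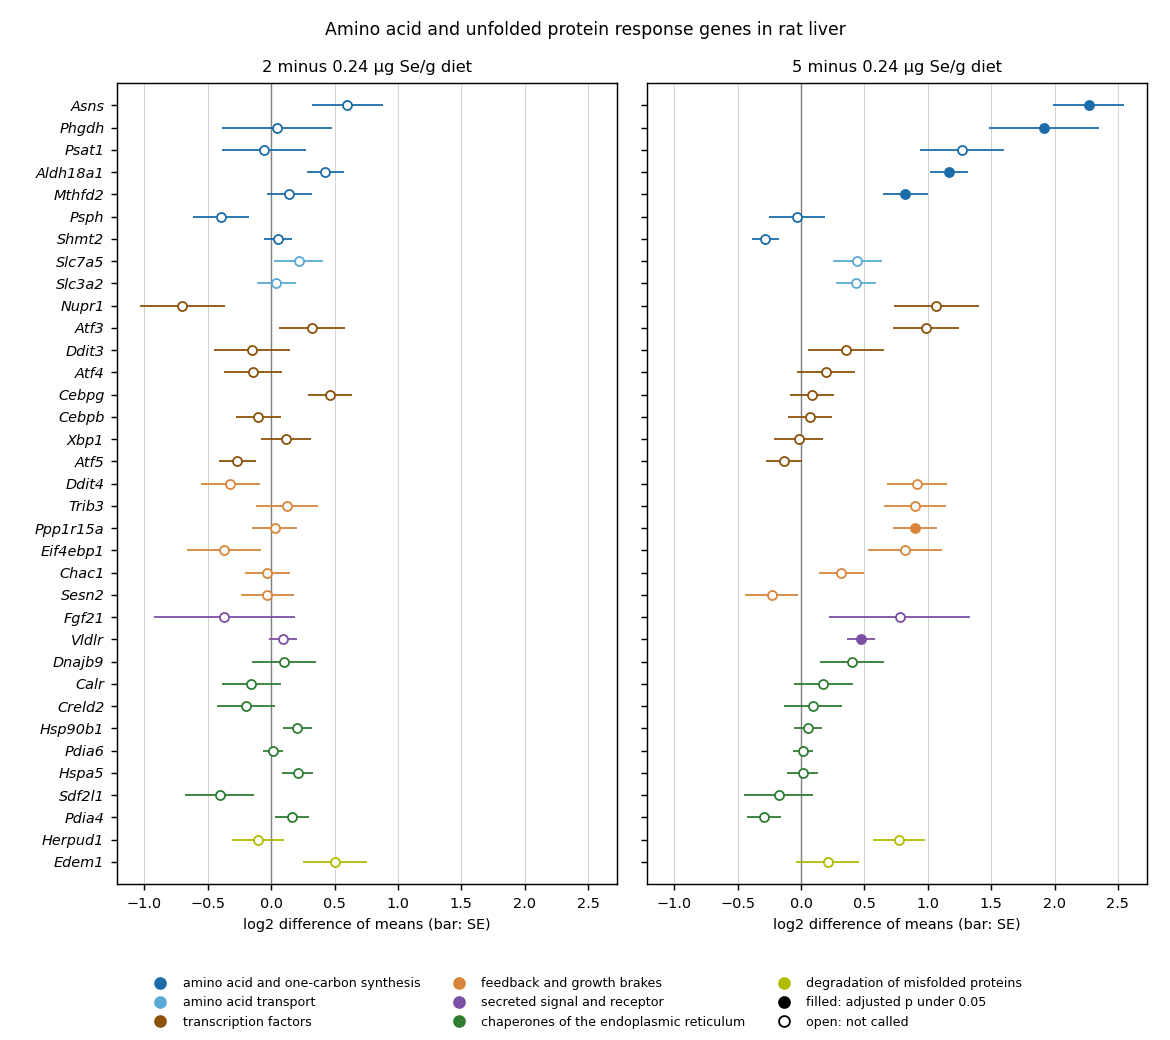
The log2 difference of group means (points) with its SE (bars) for the 35 members in rat liver, at 2 minus 0.24 μg Se/g diet in the left panel and at 5 minus 0.24 μg Se/g diet in the right panel, coloured by role. Filled points passed an adjusted p under 0.05. At 5 μg Se/g there are 6 filled points, 4 of them in amino acid and one-carbon synthesis, and the 8 chaperones lie between −0.29 and 0.40. At 2 μg Se/g every point is open.

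In amino acid and one-carbon synthesis, 4 of 7 members were called higher, and the median log2 difference was 1.17. Asns, which makes asparagine from aspartate, stood at 9.49, 8.60 and 8.77 in the 5 μg rats, against 6.63, 7.24 and 6.19 in the 0.24 μg rats (probe set 1387925_at). The lowest 5 μg rat was above the highest 0.24 μg rat, and the log2 difference was 2.27 (SE 0.28, adjusted p = 0.0019). Phgdh, the first enzyme of serine synthesis from glycolysis, stood at 10.27, 8.83 and 9.76 in 5 μg rats, against 8.07, 8.01 and 7.02 in 0.24 μg rats. Its groups did not overlap, although replicate 2 of the 5 μg rats was near the controls, and the difference was 1.92 (SE 0.43, adjusted p = 0.039). Psat1, the next enzyme of that path, averaged 9.29 ± 0.52 in 5 μg rats and 8.03 ± 0.52 in 0.24 μg rats (SD, n = 3 each), a difference of 1.27 that was not called (SE 0.33, adjusted p = 0.070). Psph, the last enzyme of serine synthesis, had a difference of −0.03 (SE 0.22, adjusted p = 0.97).

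Aldh18a1, which makes the precursor of proline and ornithine from glutamate, stood at 7.49, 7.65 and 7.43 in 5 μg rats, against 6.09, 6.42 and 6.57 in 0.24 μg rats. The groups were clearly apart and the 5 μg rats were close to each other, with a log2 difference of 1.17 (SE 0.15, adjusted p = 0.0022). Mthfd2, a mitochondrial enzyme of folate metabolism, stood at 8.01, 7.28 and 7.70 in 5 μg rats, against 6.93, 6.90 and 6.69 in 0.24 μg rats (difference 0.82, SE 0.18, adjusted p = 0.031). Shmt2, which passes a carbon unit from serine to folate in mitochondria, lay the other way, at 11.45 ± 0.03 in 5 μg rats and 11.73 ± 0.09 in 0.24 μg rats. Its groups did not overlap, and its difference of −0.28 was not called (SE 0.11, adjusted p = 0.24).

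Asns and Aldh18a1 were called in all 7 fits that left out 1 array, with adjusted p from 0.0015 to 0.012 for Asns and from 0.00079 to 0.013 for Aldh18a1. The other 4 calls were lost in at least 1 of these fits, where the highest adjusted p was 0.17 for Phgdh, 0.16 for Vldlr, 0.13 for Mthfd2 and 0.084 for Ppp1r15a. Over all 31042 probe sets, the fit called 351 without replicate 1 of the 5 μg rats. It called 435 and 467 without replicates 1 and 2 of the 0.24 μg rats, and 1196 without replicate 1 of the 2 μg rats. The number of members called was 2 without replicate 1 of the 5 μg rats, 3 without replicate 1 or without replicate 2 of the 0.24 μg rats, and 10 without replicate 1 of the 2 μg rats, which enters the fit through the shared spread. In the fit without that last array, chosen after the values were seen, Ddit4, Eif4ebp1, Herpud1 and Nupr1 joined the 6.

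The 2 transporter subunits were not called. Slc3a2, the heavy chain shared by several amino acid exchangers, stood at 11.89, 11.23 and 11.26 in 5 μg rats, against 10.90, 11.06 and 11.11 in 0.24 μg rats. Its groups did not overlap but replicate 1 of the 5 μg rats lay far above its group, and the log2 difference was 0.43 (SE 0.16, adjusted p = 0.21). Slc7a5, the light chain for large neutral amino acids, had a difference of 0.45 (SE 0.20, adjusted p = 0.32) with overlapping groups.

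None of the 8 transcription factors was called, and their median log2 difference was 0.14. Atf3, a repressor induced by many stresses, stood at 6.47, 7.28 and 6.28 in 5 μg rats, against 5.86, 5.49 and 5.73 in 0.24 μg rats (difference 0.99, SE 0.26, adjusted p = 0.076). Nupr1, a small stress-induced chromatin protein, stood at 11.26, 11.17 and 11.27 in 5 μg rats, against 10.60, 10.15 and 9.75 in 0.24 μg rats (difference 1.07, SE 0.33, adjusted p = 0.14). In both, the 5 μg rats were above all 0.24 μg rats, and these 2 were the transcription factors with an unadjusted p under 0.05. Atf4 mRNA was 11.95 ± 0.12 in 5 μg rats and 11.75 ± 0.18 in 0.24 μg rats, and its groups overlapped. Ddit3, which encodes CHOP, had a log2 difference of 0.35 (SE 0.30), and Cebpg, Cebpb, Xbp1 and Atf5 lay between −0.14 and 0.08.

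Of the 6 feedback genes and growth brakes, 1 was called higher, and their median log2 difference was 0.86. Ppp1r15a, the subunit that directs a phosphatase to eIF2 and so restores translation, stood at 7.49, 7.67 and 7.48 in 5 μg rats, against 6.76, 6.38 and 6.81 in 0.24 μg rats. The 5 μg rats were close to each other and all above the controls, with a log2 difference of 0.90 (SE 0.17, adjusted p = 0.018). Ddit4, an inhibitor of the growth kinase complex mTORC1, stood at 9.15, 8.84 and 8.52 in 5 μg rats, against 8.04, 8.11 and 7.62 in 0.24 μg rats (difference 0.91, SE 0.24, adjusted p = 0.068). Eif4ebp1, a repressor of translation initiation, stood at 10.33, 9.82 and 10.01 in 5 μg rats, against 9.20, 9.18 and 9.32 in 0.24 μg rats (difference 0.82, SE 0.29, adjusted p = 0.20). Neither was called, although neither had overlapping groups. Chac1, which degrades glutathione, and Sesn2, another inhibitor of mTORC1, had differences of 0.32 (SE 0.18) and −0.23 (SE 0.21), with overlapping groups.

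Trib3, a pseudokinase that is induced by Atf4 and restrains it, averaged 8.62 ± 0.29 in 5 μg rats and 7.72 ± 0.22 in 0.24 μg rats on its probe set with the highest mean (1370695_s_at), a log2 difference of 0.90 (SE 0.24, adjusted p = 0.083). Its other probe sets gave 0.98 (1370694_at, adjusted p = 0.042) and 0.91 (1386321_s_at, adjusted p = 0.011), and both were called. Trib3 was therefore called or not by which probe set stands for it, with nearly the same size of difference.

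Vldlr, the receptor for very low density lipoprotein, and the hormone Fgf21 are both known targets of Atf4. Vldlr stood at 6.23, 6.29 and 6.11 in 5 μg rats, against 5.57, 5.89 and 5.74 in 0.24 μg rats, on its probe set with the highest mean (1392924_at). The groups did not overlap and the log2 difference was 0.48 (SE 0.11, adjusted p = 0.041). The other 3 probe sets of Vldlr were also called higher. Probe set 1387455_a_at stood at 7.27, 7.11 and 6.57 in 5 μg rats, against 3.95, 4.31 and 3.55 in 0.24 μg rats (log2 difference 3.05, SE 0.22, adjusted p = 0.00012). The log2 difference was 2.40 on 1389611_at (adjusted p = 2e-04) and 0.79 on 1369098_at (adjusted p = 0.0033). In 0.24 μg rats these 3 probe sets averaged 3.93, 4.41 and 4.32, near Nphs1, a podocyte marker that averaged 4.03 in rat liver. Their control levels may therefore be set by background, the differences are limited by it, and their sizes are not compared between probe sets. All 4 probe sets rose. Fgf21 varied widely within groups, at 7.85 ± 0.36 in 5 μg rats and 7.07 ± 0.58 in 0.24 μg rats (adjusted p = 0.58).

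**Figure D2:**
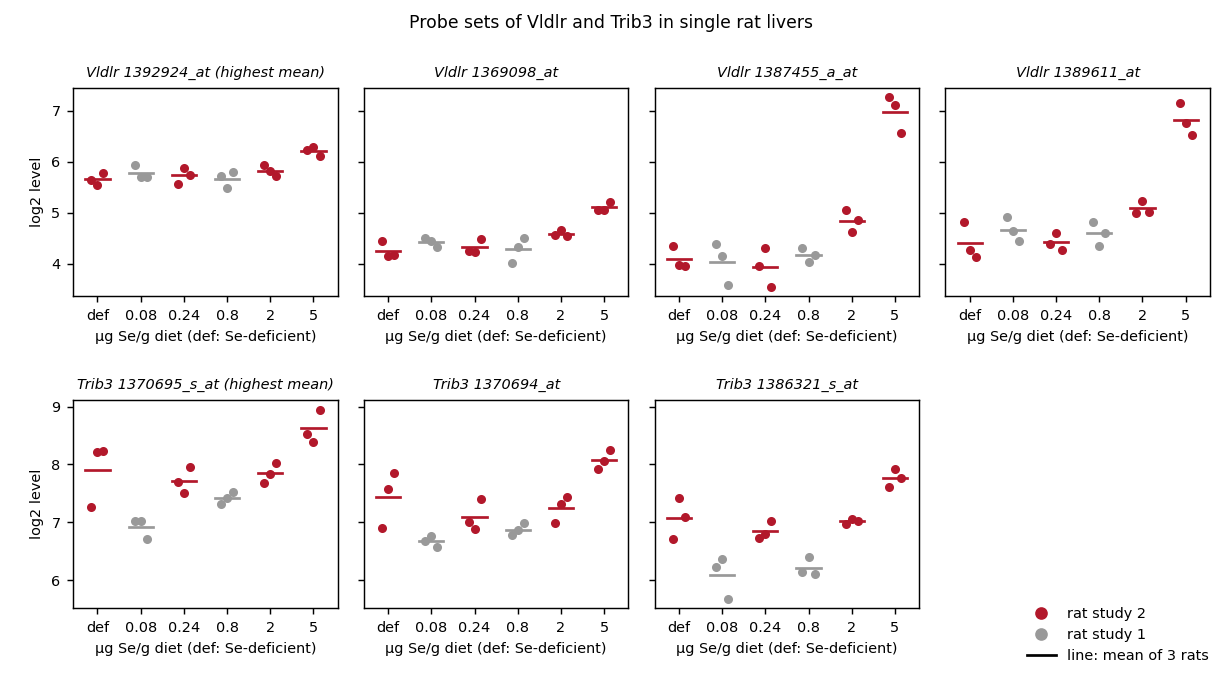
The log2 level of each rat liver array (points, 3 a diet) with the mean of the diet (lines), in order of dietary Se (μg Se/g), for the 4 probe sets of Vldlr (upper row) and the 3 of Trib3 (lower row). Red marks rat study 2 and grey marks rat study 1. On 1387455_a_at the 5 μg rats lie between 6.57 and 7.27, and the 0.24 μg rats between 3.55 and 4.31. The studies were separate experiments, and levels were not tested between them.

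Across the members, 5 have more than 1 rat probe set. Of their 9 other probe sets, 5 were called higher and 0 lower in 5 μg rats, all of them of Vldlr or Trib3.

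None of the 8 ER chaperones was called or had an unadjusted p under 0.05, and their median log2 difference was 0.03. Hspa5, which encodes the main ER chaperone BiP, averaged 12.94 ± 0.12 in 5 μg rats and 12.92 ± 0.08 in 0.24 μg rats. Hsp90b1, the ER form of Hsp90, averaged 13.14 ± 0.02 in 5 μg rats and 13.09 ± 0.04 in 0.24 μg rats. The SE of the difference was 0.12 for Hspa5 and 0.11 for Hsp90b1, so differences of that size were not detectable with 3 arrays a group. Pdia4, a disulfide isomerase and the member of this role with the smallest p, stood at 12.15, 12.12 and 12.05 in 5 μg rats, against 12.38, 12.44 and 12.37 in 0.24 μg rats. Its groups did not overlap, and its difference of −0.29 was not called (SE 0.13, adjusted p = 0.34). Dnajb9, a co-chaperone of BiP, had the highest difference of the role at 0.40 (SE 0.25), and Calr, Creld2, Pdia6 and Sdf2l1 lay between −0.18 and 0.17.

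The 2 genes of degradation were not called against 0.24 μg rats. Herpud1, a membrane protein that assembles the degradation complex of the ER, stood at 12.19, 12.18 and 11.77 in 5 μg rats, against 11.11, 11.05 and 11.66 in 0.24 μg rats. The lowest 5 μg rat was only just above the highest 0.24 μg rat, and the log2 difference was 0.77 (SE 0.21, adjusted p = 0.078). Edem1, which passes misfolded glycoproteins to degradation, had a difference of 0.21 (SE 0.25).

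Set beside the promoters, the 8 measured members with CARE had log2 differences from 0.32 to 2.27 with a median of 0.84, and 2 of them were called. The 5 members with ERSE had differences from 0.01 to 0.17 with a median of 0.05, and 0 were called. The 20 members with a window and none of the motifs had a median of 0.20, and 4 of them, Phgdh, Aldh18a1, Mthfd2 and Ppp1r15a, were called. These counts compare rat values with mouse letters, and a window with no match says only that the letters are not in those 300 bases.

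Other genes of the same pathways, from lists written with earlier results of these data known, were counted in the same comparison. Of all genes with 1 probe set each, 4.07% were called in it and 3.26% were called higher. Of 19 further amino acid transporters and supply genes, 4 were called higher and 1 lower. The 4 were Slc7a11, the cystine importer, which averaged 6.80 ± 0.52 in 5 μg rats and 4.34 ± 0.24 in 0.24 μg rats (log2 difference 2.46, adjusted p = 0.00037, with a control level near that of Nphs1 and so limited by background), Slc7a1, a carrier of basic amino acids (1.68-fold, adjusted p = 0.013), Slc1a5, a glutamine carrier (1.74-fold, adjusted p = 0.015), and Pck2, the mitochondrial enzyme that makes phosphoenolpyruvate (1.61-fold, adjusted p = 0.022). The 1 lower gene, named after its value was seen, was Aldh1l2, an enzyme of mitochondrial folate metabolism, at 10.99 ± 0.41 in 5 μg rats and 11.92 ± 0.05 in 0.24 μg rats (log2 difference −0.94, adjusted p = 0.037). Slc7a11 is also known as a target of Nrf2.

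Of 17 aminoacyl-tRNA synthetases, 1 was called higher in limma, where 3.26% of all genes were. It was Wars1, which charges tryptophan tRNA (1.51-fold, adjusted p = 0.0064). Positive differences were seen in 15 of the 17, and in 6966 of all 14217 genes. Of 17 further stress genes tied to Atf4, 2 were called higher, the secreted factor Gdf15 (1.86-fold, adjusted p = 0.026) and the growth arrest gene Gadd45b (1.64-fold, adjusted p = 0.030). Of 16 stress sensors and eIF2 factors and of 17 further degradation genes, 0 were called in limma. At an unadjusted p under 0.05, 1 and 0 of them passed, where 14.7% of all probe sets did. Of 31 further genes of ER folding and translocation, 1 was called higher, Selenom, which encodes a selenoprotein of the ER (2.72-fold, adjusted p = 0.020). The median log2 difference of these 31 genes was 0.003, beside −0.005 over all genes.

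Markers of other cell types also moved in 5 μg rats against 0.24 μg rats, where 4.07% of all genes with 1 probe set each were called. Of 6 markers of stellate cells and fibroblasts, 3 were called higher, Col1a1 by 1.62, Col1a2 by 1.20 and Des by 0.93 on the log2 scale, and the summed level of the 6 was 12.45 to 12.91 in 5 μg rats, against 12.14 to 12.73 in 0.24 μg rats. Krt19 was 1 of 4 cholangiocyte markers called higher, by 2.63, with a summed level of 9.90 to 12.03 in 5 μg rats, against 8.56 to 11.58 in 0.24 μg rats. Pecam1 was 1 of 4 endothelial markers called higher, by 0.92, with a summed level of 12.13 to 12.57 in 5 μg rats, against 12.31 to 12.67 in 0.24 μg rats. Clec4f was 1 of 5 Kupffer cell markers called lower, by −1.78, and the summed level of the 5 was 11.07 to 11.65 in 5 μg rats, against 11.96 to 12.34 in 0.24 μg rats, without overlap. Of 5 hepatocyte markers and 3 leukocyte markers, 0 were called. At an unadjusted p under 0.05, 0 and 1 of them passed, where 14.7% of all probe sets did. The summed hepatocyte level was 16.64 to 16.66 in 5 μg rats, against 16.62 to 16.71 in 0.24 μg rats. The part of these cell types in the differences of the members was not tested, and in whole tissue fewer cells of a type and less RNA in each cell cannot be told apart.

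Against 2 μg rats in place of 0.24 μg rats, 8 of 35 members were called higher in 5 μg rats and 0 lower, where 3.34% of all probe sets were called, 2.13% higher and 1.21% lower. At an unadjusted p under 0.05, 14 members were higher and 2 lower, where 24.2% of all probe sets passed. This comparison uses the same 5 μg rats and is no independent repeat of the one above. The 2 μg rats stood at 6.96, 7.36 and 7.54 for Asns, 7.09, 6.67 and 6.60 for Aldh18a1, 7.08, 7.59 and 8.57 for Phgdh and 6.42, 6.61 and 6.996 for Ppp1r15a. All were below the 5 μg rats given above, with log2 differences of 1.67 (adjusted p = 0.013), 0.74 (0.027), 1.87 (0.042) and 0.87 (0.027).

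The other 4 called were Nupr1, Ddit4, Herpud1 and Eif4ebp1, and in each the array that stood apart had the lowest value of its diet. The 2 μg rats, that array first, stood at 8.56, 9.60 and 10.24 for Nupr1, 7.06, 7.82 and 7.90 for Ddit4, 10.85, 11.27 and 11.39 for Herpud1, and 8.07, 8.89 and 9.61 for Eif4ebp1. The log2 differences were 1.77 (adjusted p = 0.022), 1.24 (0.023), 0.88 (0.043) and 1.20 (0.0495). Without that array 2 members were called, Aldh18a1 and Nupr1, and 18 (14 higher, 4 lower) without replicate 3 of the 2 μg rats. Over all 31042 probe sets these fits called 238 and 8262. Without replicate 1 of the 5 μg rats or without replicate 2 of the 2 μg rats 0 members were called, and without replicate 2 of the 5 μg rats 3 were called. Of all 31042 probe sets, these 3 fits called 149, 146 and 198, against 1037 with every array. The count of members, like that of all probe sets, thus rests on single arrays.

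**Figure D3:**
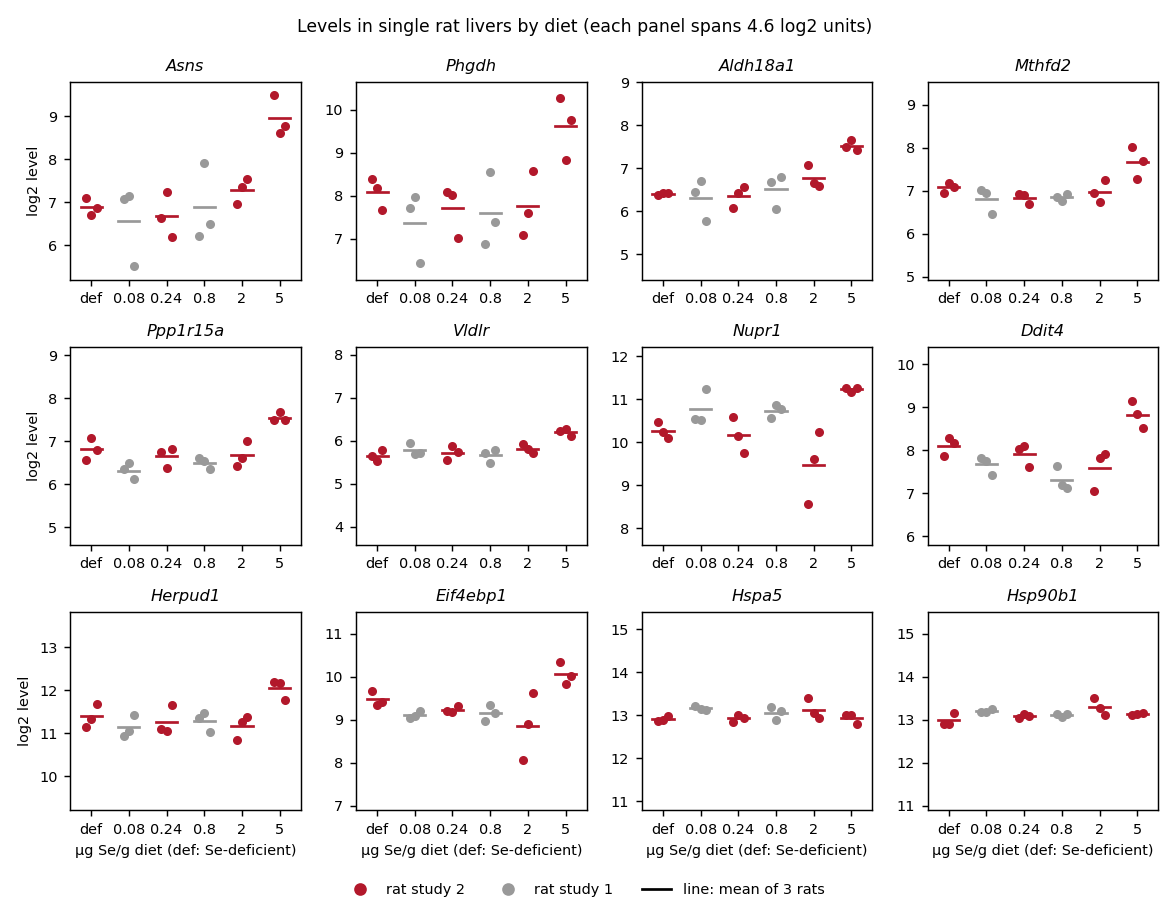
The log2 level of each rat liver array (points, 3 a diet) with the mean of the diet (lines), in order of dietary Se (μg Se/g), for the 10 members called in any comparison and for Hspa5 and Hsp90b1. Red marks rat study 2 and grey marks rat study 1. Asns in 5 μg rats lies between 8.60 and 9.49, above all other rats, and Nupr1 has its lowest rat, 8.56, in 2 μg rats. The studies were separate experiments, and levels were not tested between them.

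In 2 μg rats against 0.24 μg rats, 0 of 35 members were called in limma, and 2 were higher at an unadjusted p under 0.05, where 15.3% of all probe sets passed and 0.00322% were called. The median log2 difference was 0.03, and 19 of 35 were positive. Aldh18a1 stood at 7.09, 6.67 and 6.60 in 2 μg rats, against 6.09, 6.42 and 6.57 in 0.24 μg rats, just without overlap (difference 0.43, SE 0.15, adjusted p = 0.32). Cebpg, a partner of Atf4, had a difference of 0.46 (SE 0.17, adjusted p = 0.32), and its highest value, 11.30, was on the array that stood apart. Asns had a difference of 0.60 (SE 0.28, adjusted p = 0.33) with overlapping groups. Without replicate 3 of the 2 μg rats, 7 members were called, 4 higher and 3 lower, where 5800 of all 31042 probe sets were called. Vldlr probe set 1387455_a_at stood at 5.06, 4.61 and 4.85 in 2 μg rats, above all 0.24 μg rats (difference 0.91, SE 0.22, adjusted p = 0.32).

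In Se-deficient rat liver, 0 of 35 members were called against 0.24 μg rats, and 1 had an unadjusted p under 0.05, where 3.4% of all probe sets passed and 0.00322% were called. The median log2 difference was 0.12 over the members, with 28 of 35 positive, and 0.004 over all genes. Chac1 stood at 7.40, 7.22 and 7.67 in Se-deficient rats, against 6.90, 6.87 and 7.03 in 0.24 μg rats. The groups did not overlap, and the difference was 0.50 (SE 0.18, adjusted p = 1). Atf3 had a difference of 0.53 (SE 0.26) and Psat1 of 0.60 (SE 0.33), each without overlap and with an adjusted p of 1. The largest difference was 0.94 for Fgf21 (SE 0.56), whose Se-deficient rats stood at 7.17, 7.998 and 8.87 and overlapped the controls. The 0.24 μg rats are shared with the comparisons of 2 and 5 μg rats.

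In rat study 1, in 0.8 μg rats against 0.08 μg rats, 0 of 35 members were called, and 3 were higher and 3 lower at an unadjusted p under 0.05, where 4.58% of all probe sets passed and 0% were called. Trib3 stood at 7.32, 7.42 and 7.52 in 0.8 μg rats, against 7.02, 7.02 and 6.71 in 0.08 μg rats (difference 0.50, SE 0.12, adjusted p = 0.97). Atf3 stood at 5.88, 5.99 and 6.30 in 0.8 μg rats, against 5.33, 5.58 and 5.74 in 0.08 μg rats (difference 0.51, SE 0.15, adjusted p = 0.97). Neither pair of groups overlapped, and Dnajb9 had a difference of 0.45 (SE 0.17) with overlap.

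In study 1 the same rats were highest and lowest in 3 synthesis genes. Replicate 2 of the 0.8 μg rats had the highest Asns (7.92), Phgdh (8.56) and Psat1 (9.12) of the 6 rats, and replicate 3 of the 0.08 μg rats had the lowest, at 5.51, 6.42 and 7.53. The highest Asns value of study 1 was still below the lowest in 5 μg rats, 8.60, although the studies were separate experiments. Some array controls also differed between them, as AFFX-LysX-3_at, at 10.30 to 10.65 in study 1 and 6.04 to 7.46 in study 2. Others overlapped, as AFFX_Rat_beta-actin_3_at, at 12.90 to 13.16 in study 1 and 12.98 to 13.37 in study 2. Levels are therefore not tested across the studies. The paper's methods describe processing each study apart, and whether the deposited rat values were normalized so was not tested.

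**Figure D4:**
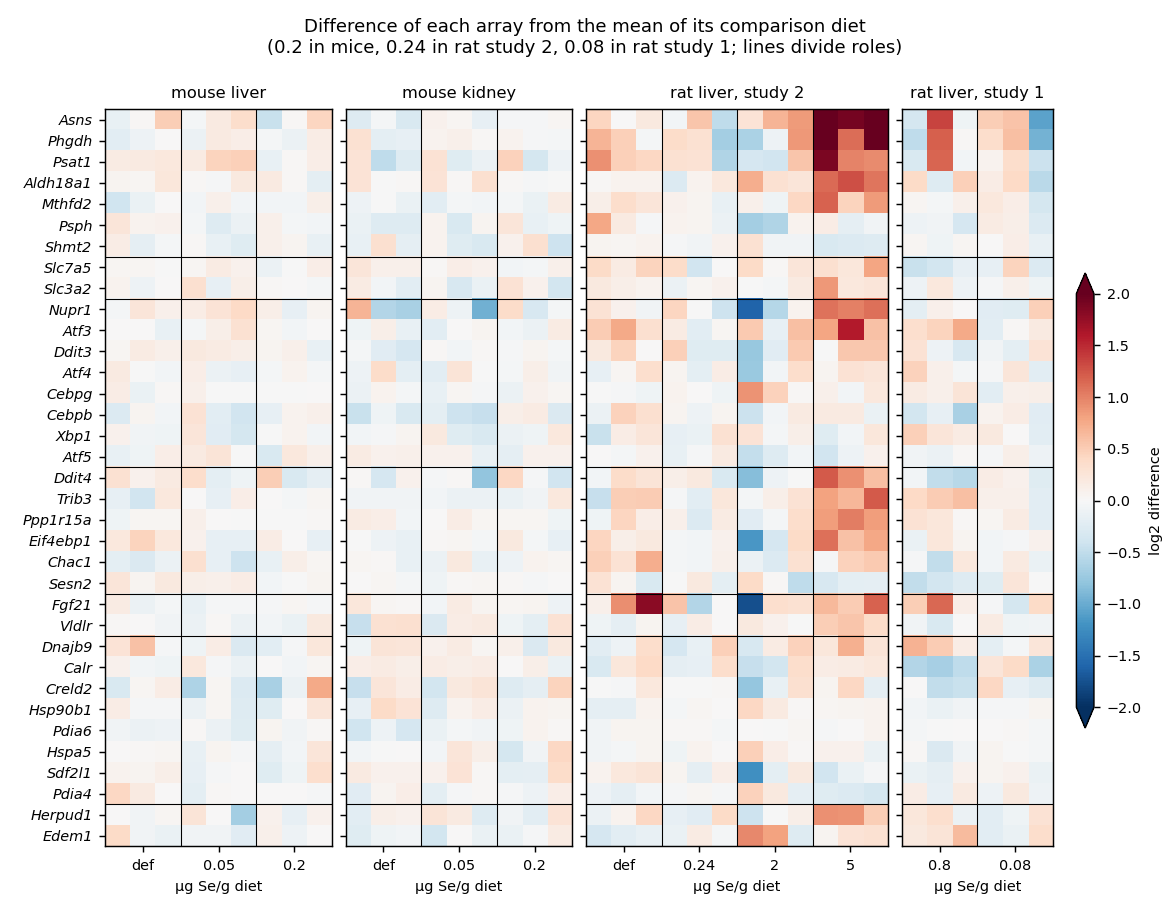
The log2 difference of each of the 36 arrays (columns) from the mean of its comparison diet, for the 35 members (rows, by role, lines between roles), in mouse liver, mouse kidney, rat study 2 and rat study 1. Red is higher and blue is lower, and colours end at 2 in both directions. The 3 arrays of 5 μg rats are red in Asns, Phgdh, Psat1 and Aldh18a1 and paler in the chaperones.

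In Se-deficient mouse liver, 0 of 35 members were called against 0.2 μg mice, and 2 were higher at an unadjusted p under 0.05, where 4.63% of all probe sets passed and 0.0222% were called. The log2 differences ran from −0.20 to 0.29 with a median of 0.01. Eif4ebp1 stood at 10.39, 10.63 and 10.40 in Se-deficient mice, against 10.33, 10.20 and 10.02 in 0.2 μg mice, without overlap (difference 0.29, SE 0.11, adjusted p = 0.93). Sesn2 had a difference of 0.17 (SE 0.07) and Pdia4 of 0.20 (SE 0.10), both with overlapping groups and an adjusted p of 0.93.

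In liver of mice fed 0.05 μg Se/g, 0 members were called and 2 were higher at an unadjusted p under 0.05, where 1.95% of all probe sets passed and 0% were called. Psat1 stood at 3.83, 4.11 and 4.16 in 0.05 μg mice, against 3.53, 3.69 and 3.81 in 0.2 μg mice, near the low end of the values on these arrays (difference 0.36, SE 0.10, adjusted p = 1). Nupr1 had a difference of 0.27 (SE 0.11) and Ddit3 of 0.16 (SE 0.08), each without overlap and with an adjusted p of 1.

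In Se-deficient mouse kidney, 0 members were called and 2 were lower at an unadjusted p under 0.05, where 5.42% of all probe sets passed and 0.00666% were called. Pdia6, a disulfide isomerase, stood at 10.64, 10.94 and 10.71 in Se-deficient mice, against 10.96, 11.12 and 11.06 in 0.2 μg mice, without overlap (difference −0.28, SE 0.09, adjusted p = 0.89). Ddit3 had a difference of −0.20 (SE 0.08) and Asns of −0.20 (SE 0.09), both with an adjusted p of 0.89. In kidney of mice fed 0.05 μg Se/g, 0 members were called and 1 was lower at an unadjusted p under 0.05, where 2.91% of all probe sets passed and 0% were called. The smallest p there were those of Cebpb (difference −0.35, SE 0.14), Aldh18a1 (0.20, SE 0.10) and Calr (0.13, SE 0.08), each with overlapping groups and an adjusted p of 1.

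**Figure D5:**
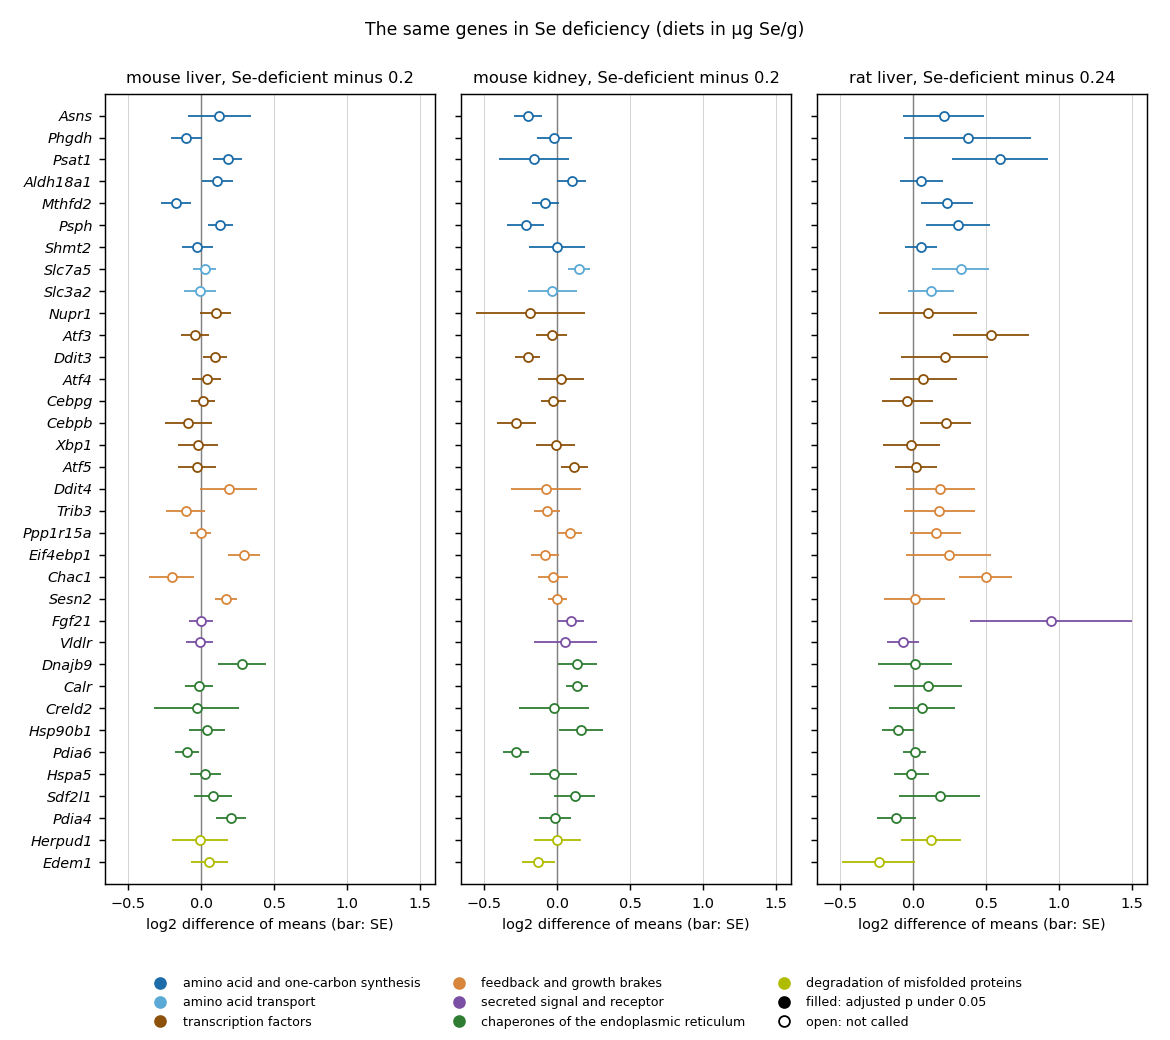
The log2 difference of group means (points) with its SE (bars) for the 35 members in Se deficiency, in liver and kidney of mice and liver of rats, coloured by role. All points are open, which marks an adjusted p above 0.05. The differences run from −0.20 to 0.29 in mouse liver, from −0.28 to 0.16 in mouse kidney and from −0.24 to 0.94 in rat liver.

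The response to Se deficiency was also compared between mouse liver and kidney in a fit with an interaction term over the 18 mouse arrays, on the probe set that is brightest in liver. Of the 35 members 0 were called, and 0.00222% of all probe sets were. At an unadjusted p under 0.05 2 members passed, where 5.79% of all probe sets did. The smallest p were those of Ddit3, with a liver minus kidney difference of 0.30 (SE 0.12), Psph, with 0.35 (SE 0.16), and Eif4ebp1, with 0.25 (SE 0.14), each with an adjusted p of 0.83. For Shmt2, Trib3, Eif4ebp1 and Vldlr another probe set was brightest in kidney. On those probe sets, tried once the values were known, 0 members were called either, and Eif4ebp1 had a difference of 0.26 (SE 0.13, adjusted p = 0.83). With a block for each diet and replicate number across the tissues, 0 were called as well.

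Levels in kidney and liver of mice fed 0.2 μg Se/g are given as a description, because the tissues were normalized separately, and both tissues are read on the probe set that is brightest in liver. The 3 kidney arrays lay above the 3 liver arrays in 7 members, where 38.6% of all probe sets did so, and below them in 19, where 31.4% did, and 9 members overlapped. Without the 4 members whose brightest probe set differs between the tissues, 6 were higher, 16 lower and 9 overlapped. Psat1 stood at 7.97 to 8.78 in kidney, against 3.53 to 3.81 in liver, and Nupr1 at 8.01 to 8.69 in kidney, against 6.65 to 6.92 in liver. Atf5, a transcription factor close to Atf4, stood at 6.46 to 6.72 in kidney, against 10.62 to 11.13 in liver, and Sdf2l1 at 6.22 to 6.79 in kidney, against 8.35 to 8.93 in liver. Of the 8 chaperones 7 were lower in kidney without overlap, Hspa5 among them at 11.81 to 12.58 in kidney, against 12.99 to 13.41 in liver. Atf4 itself overlapped, at 10.48 to 10.67 in kidney and 10.41 to 10.53 in liver.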

How the data were processed

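Affymetrix arrays of mouse liver and kidney (18 arrays) and rat liver (18 arrays) were used, 36 in all, 3 for each diet and tissue. The values deposited by the authors are log2 expression values per probe set. The submitters' processing notes name GCRMA, with no version given, whereas RMA is named in the methods of the paper, with each study and mouse tissue normalized on its own. They were used as deposited, without a filter on low signal, so any scale differences between tissues and studies are not removed. Which rat diets belong to study 1 and which to study 2 was taken from the paper. Array controls (64 in the mouse, 57 in the rat) were left out, which left 45037 mouse and 31042 rat probe sets to test. Of these, 34945 mouse and 20826 rat probe sets carry 1 symbol in the platform annotation, 932 and 436 several, and 9160 and 9780 none.

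Fits used limma 3.58.1 in R 4.3.3 (lmFit with 1 coefficient for each diet, eBayes). The p-values were adjusted by Benjamini-Hochberg across every tested probe set of the species, and the threshold was 0.05. The 9 arrays of each mouse tissue, the 12 of rat study 2 and the 6 of rat study 1 were fitted separately, and the 18 mouse arrays together for the interaction of tissue and deficiency. The fit was tested on simulated data before use. Figures were drawn with Python 3.11.15 and matplotlib 3.10.9. Depth does not apply to arrays, and the number of arrays limits the precision.

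The members, the pathway and marker lists and the motifs were chosen with earlier results of these data known, so no list is independent support for its own direction. Values per array are given for members called in any comparison and, in each role, for the member with the smallest p at 5 against 0.24 μg Se/g. In other comparisons the 3 members with the smallest p are named, and in other lists up to 4 called genes. Vldlr and Trib3 probe sets were singled out after their values were seen.

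Alternatives were only the 2 groups compared, a single fit of every array of the species, limma's trend and robust options, array weights, probe sets with a low mean left out, quantile normalization, the mean of all probe sets of a gene, the replicate number as a block, and each array left out in turn. As a check of pairing, deviations of same-numbered arrays from their group means were correlated. In mouse liver r was 0.462, 0.105 and 0.319 for Se-deficient against 0.2 μg mice, all over 0.1, while every other pair of diets had at least 1 number below 0.1. Across the tissues, for arrays that match in diet and number, r was 0.212 to 0.249 in 0.05 μg mice, 0.116 to 0.241 in 0.2 μg mice and −0.114 to 0.0313 in Se-deficient mice. Same-numbered arrays of the first 2 diets may therefore share an animal. The paper gives as many mice for each diet as arrays of each tissue, so Se-deficient arrays may share animals too, under other numbers.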

Additional observations from a re-analysis of the deposited data

How the results depend on the processing

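At 5 against 0.24 μg Se/g, where 6 members were called, all 18 rat arrays in one fit called 10 and array weights called 17 (15 higher, 2 lower), and leaving out 1 array called 2 to 10. Against 0.24 μg rats, the fit of all 18 arrays called 1193 of all probe sets in 5 μg rats. It called 6 in 2 μg rats and 6 in Se-deficient rats, where the fit of study 2 alone called 875, 1 and 1. The paper's counts of altered transcripts for these diets equal those of the larger fit. Whether the deposited values come from RMA or GCRMA was not tested. At 5 against 2 μg Se/g, where 8 were called, only the 2 groups compared gave 0, array weights 25 (20 higher, 5 lower) and the replicate block 5, and leaving out 1 array gave 0 to 18. Array weights called 14962 of all 31042 probe sets there. At 2 against 0.24 μg Se/g, where 0 were called, array weights called 12 (8 higher, 4 lower) and leaving out 1 array gave 0 to 7, with 7 without replicate 3 at 2 μg Se/g. Of all 31042 probe sets, array weights called 13048 there, and the fit without that replicate called 5800. At 0.8 against 0.08 μg Se/g, where 0 were called, leaving out 1 array gave 0 to 1, Calr lower without replicate 3 at 0.08 μg Se/g. The cause of these changes was not tested. In the mouse comparisons and in Se-deficient rat liver 0 members were called in every alternative run. With the replicate number as a block, 5 members were called at 5 against 0.24 μg Se/g (Phgdh and Vldlr lost, Trib3 gained), and in the mouse it left the count of members called at 0. Over all probe sets the block called 16 in place of 10 in Se-deficient mouse liver, where r of same-numbered arrays was over 0.1. For replicate 2 there, r was 0.105 with the same number and 0.265 with another, so a pairing by number is not settled. Of 550 values of single named members under alternatives, 471 kept their direction and side of the threshold, 14 passed it newly, 65 no longer passed it and 0 turned round. Over all probe sets, calls at 5 against 0.24 μg Se/g numbered 875 and ran from 351 to 3184 over the alternatives, those at 5 against 2 μg Se/g numbered 1037 and ran from 9 to 14962, and those at 2 against 0.24 μg Se/g numbered 1 and ran from 0 to 13048. The 3 arrays of each group limit what could be detected.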
